A study of Mus musculus with 10 samples.

Results

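Plasma proteins made by hepatocytes and enzymes of hepatic amino acid metabolism were followed in single fetal livers of the mouse, to ask which of them are expressed at embryonic day 14.5 and whether they differ without the RNA-binding protein Zfp36l2. The genes were chosen by name: 33 symbols were listed, and every probe set annotated with exactly 1 of these symbols was taken, which gave 45 of 45037 probe sets and 30 genes of 18193. Trf, Gc and Sds had no such probe set and were not analysed here, and probe sets annotated to several genes (Trf with Srprb, and Ass1 with Gm5424) were not used. The study holds 10 livers, each from a separate fetus of a mixed b6 and 129 strain: 5 were wild type and 5 were Zfp36l2 knockouts. The labels say neither how the gene was inactivated nor in which cells beyond calling the fetuses knockouts, and they give no litter, sex or batch. Each liver was read on 1 Affymetrix array, whose values are fluorescence intensities per probe set with no unit. Values below were quantile-normalised and are called intensities. For tests, intensities under 16 were set to 16 before log2 was taken because a large share of values on every array lay at or below 0.

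Hepatocytes secrete most proteins of the plasma. Alpha-fetoprotein (Afp), albumin (Alb), transthyretin (Ttr) and the fetuins are carriers or inhibitors that the fetal liver already makes, and Afp is replaced by albumin after birth. The same cells later detoxify ammonia in the urea cycle, break down amino acids and make glucose. Several of these enzymes, such as tyrosine aminotransferase (Tat), tryptophan dioxygenase (Tdo2) and phosphoenolpyruvate carboxykinase (Pck1), are known to be switched on around or after birth. Glucocorticoids, glucagon and the liver-enriched transcription factors HNF1, HNF4 and C/EBP take part in this. In the fetus these hepatoblasts and hepatocytes share the organ with a large mass of blood-forming cells.

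The stretches before the start sites of the carriers and of the late enzymes are shown because the level of these genes separates them, as described next. Each is the 150 bases before the annotated start, 5′ to 3′, from RefSeq (build GRCm38.p6), and capitals mark matches to the HNF1 motif GTTAAT, the C/EBP core TTGCNNAA, the glucocorticoid receptor motif AGAACA or the TATA motif TATAAA on either strand. Alb (chr5:90460720-90460869, plus strand) and Afp (chr5:90490564-90490713, plus strand) are next to each other with 0 protein-coding genes between. Ahsg (chr16:22891865-22892014, plus strand) is next to Fetub. Ttr, which the comparison of levels below includes, had no promoter among those used here. Alb is shown but is not part of that comparison. Tat lies at chr8:109990286-109990435 (plus strand), Tdo2 at chr3:81975729-81975878 (minus strand) and Pck1 at chr2:173152923-173153072 (plus strand).
Alb: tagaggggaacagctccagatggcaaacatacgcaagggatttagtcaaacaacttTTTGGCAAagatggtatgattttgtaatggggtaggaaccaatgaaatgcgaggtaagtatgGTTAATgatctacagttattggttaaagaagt
Afp: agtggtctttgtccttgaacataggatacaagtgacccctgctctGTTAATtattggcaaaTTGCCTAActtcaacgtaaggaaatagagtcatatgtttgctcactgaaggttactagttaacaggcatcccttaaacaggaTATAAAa
Ahsg: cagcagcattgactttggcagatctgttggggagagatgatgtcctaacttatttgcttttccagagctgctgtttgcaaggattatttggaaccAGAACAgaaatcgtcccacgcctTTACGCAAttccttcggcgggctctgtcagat
Tat: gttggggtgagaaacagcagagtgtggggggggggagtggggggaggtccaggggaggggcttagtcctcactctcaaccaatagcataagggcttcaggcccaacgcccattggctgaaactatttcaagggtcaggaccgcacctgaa
Tdo2: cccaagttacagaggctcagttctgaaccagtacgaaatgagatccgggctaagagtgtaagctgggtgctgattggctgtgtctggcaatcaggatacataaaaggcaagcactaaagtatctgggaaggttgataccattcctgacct
Pck1: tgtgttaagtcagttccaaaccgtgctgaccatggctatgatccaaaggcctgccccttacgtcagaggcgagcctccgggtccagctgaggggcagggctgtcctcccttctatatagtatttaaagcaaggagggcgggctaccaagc

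Of the 33 listed genes 25 had a promoter in the RefSeq table, with 27 promoters of 300 bases (250 before the start and 50 after). The HNF1 motif stood in 5 of them, those of Afp, Alb, Gc, Itih1 and Pck1, or 18.5% against 7.1% of all 32851 promoters of that length. The C/EBP core stood in 8 (29.6% against 10.8%), among them Afp, Ahsg, Alb and Rbp4. The glucocorticoid receptor motif stood in 6 (22.2% against 19.0%) and the TATA motif in 7 (25.9% against 13.6%). Matches to different motifs did not overlap in the stretches shown. In the printed stretches Afp held the HNF1 motif, the C/EBP core and the TATA motif, Alb the HNF1 motif and the C/EBP core, and Ahsg the glucocorticoid receptor motif and the C/EBP core, while Tat, Tdo2 and Pck1 held none of the 4. These are counts of exact letters in short windows and were not tested. Near matches were not counted, so a stretch without a match may still hold such a site. The matches of Pck1 to the HNF1 motif and of Tdo2 to the TATA motif lay further from the start than the stretches shown.

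In wild type livers the carriers named in the rule stood at the top of the array and the late enzymes at its background. The percentile of Afp, Ahsg and Ttr among all probe sets of an array was 98.9 or higher in the 5 wild type livers, and that of Tat, Tdo2 and Pck1 ran from 15.4 to 64.2. Intensities of different probe sets do not measure relative amounts of RNA, so this contrast is a description of where each probe set falls on the array. Afp was the brightest probe set of all on 6 of the 10 arrays. Before normalization it read 15772, 15524, 16422, 18272 and 16171 in wild type livers 1 to 5. It read 16241, 16737, 16055, 15719 and 15719 in knockout livers 1 to 5. No saturation flags were used here, so these readings are given as the table holds them. The wild type mean was 16432 ± 1086 and the knockout mean 16094 ± 423 (SD, n = 5 each), and the genotypes overlapped.

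Tat, which starts tyrosine breakdown, had intensities of 18.8, 7.88, -4.86, 48.6 and 5.26 in wild type livers 1 to 5. In 3 of 5 wild type and 3 of 5 knockout livers it lay under 16. Tdo2, which opens the tryptophan ring, had intensities of 39.0, 15.2, 4.34, 23.5 and 14.3, again under 16 in 3 wild type livers. Its other 2 probe sets averaged 10.1 and 4.36. Pck1, the entry step of gluconeogenesis, had intensities of 37.4, 24.4, 15.6, 8.75 and 32.6, and its other 2 probe sets averaged under 16 in both genotypes. Tat and Tdo2 lay under 16 in 3 of 5 wild type livers and Pck1 in 2 of 5. This limits the signal of these probe sets and does not show that the RNA was absent.

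**Figure D1:**
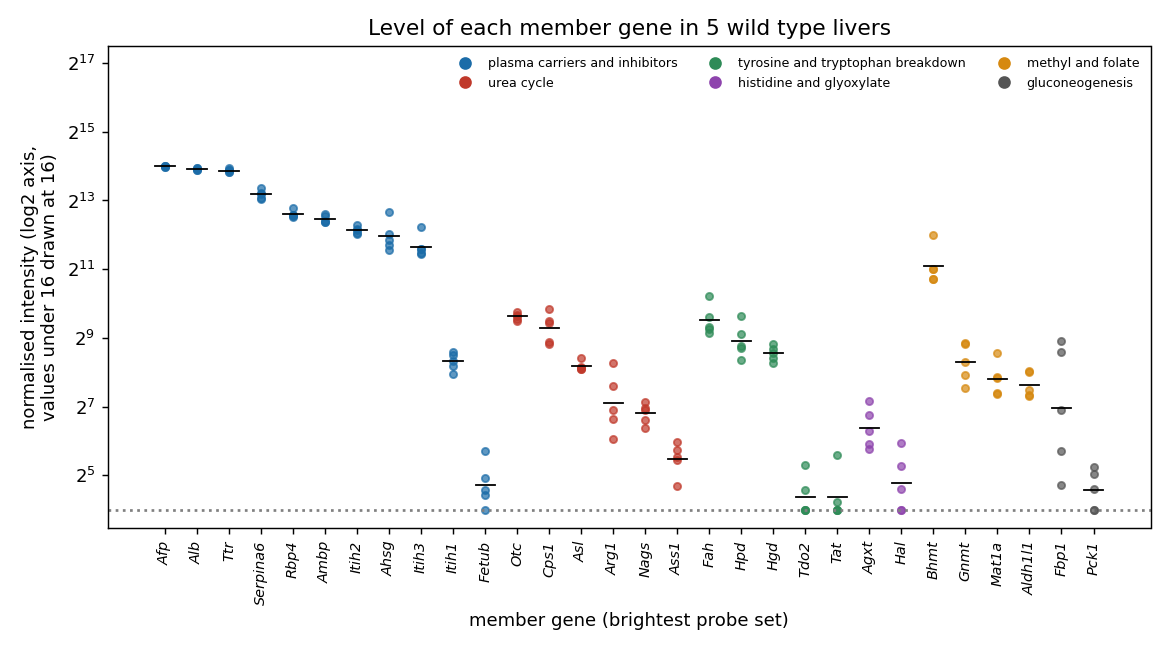
Normalised intensity (log2 axis) of the brightest probe set of each of the 30 genes in the 5 wild type livers, coloured by role; points are livers, bars are means of log2 values, and the dotted line is the floor of 16. Afp, Alb and Ttr sit at the top, while Fetub, Tdo2, Tat, Hal and Pck1 have livers at the floor.

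The other carriers also stood near the top of the array, except Itih1 and Fetub, which were lower. Serpina6, the corticosteroid-binding globulin, averaged 9293 ± 779 (SD, n = 5) in wild type livers, and the retinol carrier Rbp4 6229 ± 479. Ambp, the precursor of alpha-1-microglobulin and bikunin, averaged 5662 ± 422, and the heavy chains that bikunin is linked to averaged 4499 ± 329 for Itih2 and 3304 ± 833 for Itih3. Itih1 was at 322 ± 54.6 (percentile 89.0), although it is the neighbour of Itih3 (percentile 99.0) with 0 protein-coding genes between. The same holds for the fetuins on chromosome 16: Ahsg had a median percentile of 99.2 and its neighbour Fetub, a related inhibitor, 50.7.

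All 6 genes of the urea cycle and its activation read above 16 in every wild type liver. Otc, which joins carbamoyl phosphate to ornithine in mitochondria, averaged 790 ± 55.5 in wild type livers, and Cps1, which makes carbamoyl phosphate, 652 ± 196. The cytosolic lyase Asl averaged 289 ± 28.6, the arginase Arg1 157 ± 95.3, and Nags, which makes the activator of Cps1, 113 ± 22.7. Ass1 averaged 46.1 ± 13.6 on the single probe set that carried its symbol alone. Its percentile ran from 52.4 to 68.0 in wild type livers, which overlaps the 15.4 to 64.2 of Tat, Tdo2 and Pck1. For Ass1, reading above 16 therefore does not set it apart from background. Below Tat, the tyrosine pathway was bright: Hpd averaged 504 ± 182, the next enzyme Hgd 377 ± 54.6, and Fah, the last step, 760 ± 260. Bhmt, which remethylates homocysteine from betaine, was the brightest enzyme probe set at 2314 ± 986. Mat1a, the hepatic methionine adenosyltransferase, averaged 234 ± 86.5, the glycine methyltransferase Gnmt 331 ± 124 and the folate enzyme Aldh1l1 203 ± 51.5. Agxt, which detoxifies glyoxylate, averaged 88.4 ± 36.7, and the histidine ammonia-lyase Hal 29.4 ± 20.8.

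Zfp36l2 itself was measured first as a check of the labels. Its mean was 434 ± 91.0 (SD, n = 5) in the wild type and 102 ± 11.3 (SD, n = 5) in the knockouts, a log2 change of -2.08 ± 0.13 (SE; limma adjusted p = 1.47e-06), with no overlap. Over the arrays as a whole, medians before normalization ran from 19.5 to 25.01, and 20.7% to 22.6% of values were at or below 0. Of the measured hepatoblast and hepatocyte markers outside the 30 genes, 9 of 9 averaged above 16. Their summed intensity was 30911 to 36634 in wild type and 33316 to 39900 in knockout livers. The floor of 16 lies under the normalised array median of 22.7. All 9 erythroid, 8 megakaryocyte and 7 macrophage genes averaged above 16 too, so passing it does not identify the tissue. The log2 changes of the hepatoblast and hepatocyte markers ran from 0.00 to 0.51, all above 0. Of these markers 0 were called and 3 (Fgb, Hnf4a and Krt8) had an unadjusted limma p under 0.05. Fgb is also in the acute phase list below, and Hnf4a and Foxa2 are among the regulators of hepatic genes below. These lists are therefore not separate from each other. Of 5 measured markers of mature hepatocytes, Cyp2e1, Cyp1a2 and Cyp2f2 averaged under 16 in wild type livers, while Glul (1267) and Cyp3a11 (267) did not. Of 7 markers of gut and pancreas Cdx2, Vil1, Cpa1, Pdx1 and Ins2 averaged under 16 in wild type livers, while Fabp2 (137) and Ctrb1 (29.8) did not. Of 8 megakaryocyte genes 6 were called lower, while 0 of 9 erythroid and 0 of 7 macrophage genes were called. At an unadjusted limma p under 0.05, 6 erythroid genes were lower and 4 macrophage genes higher. Over all tested genes 0.336% were called, and 5.94% were higher and 5.46% lower at that unadjusted p. Summed erythroid intensity ran from 32533 to 42229 in wild type and from 31621 to 35919 in knockout livers. In whole livers, fewer cells of a type and less RNA per cell cannot be told apart, and the part of these lists in the values below was not tested.

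No hepatocyte gene of the 30 was called different between the genotypes. In limma with Benjamini-Hochberg adjustment over all 27022 probe sets tested, 0 of 30 passed an adjusted p of 0.05, against 43 of 12782 genes in all (0.336%). At an unadjusted p under 0.05 there was 1 of 30, Ambp, higher in the knockouts, against 11.4% of all genes (5.94% higher and 5.46% lower) and 9.75% of all probe sets. In 0 of 30 the genotypes did not overlap, against 2.79% of all genes (1.35% higher and 1.44% lower in knockouts). The log2 changes were above 0 in 14 genes and below 0 in 16, against 50.1% above 0 among all genes, and their median was -0.01, with 0.00 over all genes. Leaving out any liver singly left 0 of the genes called, with medians from -0.05 to 0.05. The count over all probe sets moved with every liver: 57 were called with all 10 (0.211%), and 24, 30, 16, 13 and 168 without wild type livers 1 to 5 and 29, 34, 33, 15 and 20 without knockout livers 1 to 5.

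**Figure D2:**
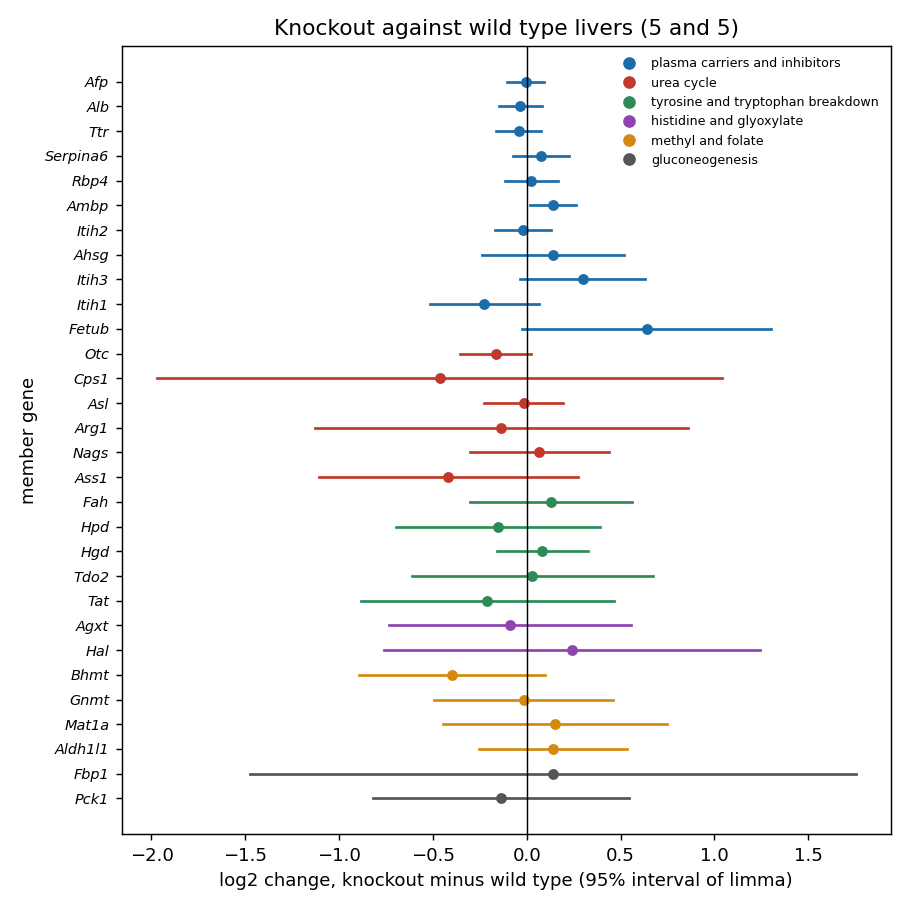
Log2 change from wild type to knockout (x axis) for each of the 30 genes, with the 95% interval of limma; colours give roles. The intervals are narrow for the bright carriers (Afp -0.10 to 0.09) and widest for Fbp1 (-1.47 to 1.75) and Cps1 (-1.97 to 1.04).

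How much of a difference the data leave room for varied between the genes. The 95% interval of the change lay within 1.5-fold either way for 16 of the 30 genes and within 2-fold for 24. For the 5 genes with a liver under the floor (Fetub, Tat, Tdo2, Hal and Pck1) the floor narrows these intervals, so they are no bound on a change in RNA. Bright carriers had the narrowest ones. The change of Alb was -0.03 ± 0.05 (SE; interval -0.15 to 0.08; limma adjusted p = 0.896), from 15407 ± 349 to 15063 ± 949. Ttr changed by -0.04 ± 0.06 (-0.16 to 0.08; adjusted p = 0.869) on its brightest probe set, and by 0.07, 0.08 and 0.08 on its other 3. For Afp the change was -0.01 ± 0.05 (adjusted p = 0.980), and its 3 other tested probe sets gave -0.01, 0.01 and -0.15. With arrays scaled to 1 median in place of quantile normalization, the brightest probe sets of Afp, Alb and Ttr changed by 0.06, 0.03 and 0.06, so the sign of these small values is not settled. Quantile normalization fixes the value of a probe set by its rank, which leaves the brightest ones little room to differ.

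Ambp was the carrier with the smallest p. It read 6011, 5379, 5356, 5342 and 6223 in wild type livers 1 to 5. In knockout livers 1 to 5 it read 6082, 6116, 6139, 6072 and 6715. The knockout livers lay above 4 of the 5 wild type livers, and wild type liver 5 above 4 of the 5 knockout livers, a change of 0.14 ± 0.06 (interval 0.02 to 0.26; limma adjusted p = 0.432). Itih3 read 3087, 3057, 2760, 2843 and 4772 in wild type, and 3643, 2974, 3891, 4071 and 5786 in knockout livers. Its groups overlapped through wild type liver 5 and knockout liver 2 (0.30 ± 0.16, adjusted p = 0.586). Itih1, the neighbour of Itih3, averaged 322 ± 54.6 and 276 ± 53.4 (-0.23 ± 0.14, adjusted p = 0.636). Fetub had the highest log2 change of the 30 genes at 0.64 ± 0.31 (adjusted p = 0.536), from intensities of 6.53 to 52.4 in wild type and 33.9 to 51.9 in knockout livers. Rbp4, Serpina6 and Itih2 had changes of 0.02, 0.08 and -0.02 (limma, with adjusted p of 0.950, 0.787 and 0.959). Ahsg had one of 0.14 ± 0.18 (adjusted p = 0.864).

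Enzymes had larger spreads and no called change. Bhmt read 2065, 2074, 1695, 1693 and 4045 in wild type livers and 1516, 1240, 1822, 1267 and 2880 in knockout livers. Each knockout liver but number 3 and number 5 lay below all wild type livers, and the change was -0.40 ± 0.23 (limma adjusted p = 0.625). Otc read 725, 809, 800, 750 and 868 in wild type and 719, 551, 774, 763 and 737 in knockout livers. Its change was -0.16 ± 0.09 (adjusted p = 0.592), and its other tested probe sets gave -0.10 and, for a dim one, -0.88 (adjusted p = 0.882 and 0.463). Ass1 changed by -0.42 ± 0.33, Asl by -0.02 ± 0.10 and Nags by 0.07 ± 0.17 (adjusted p = 0.739, 0.976 and 0.949). Among late enzymes, Tat changed by -0.21, Tdo2 by 0.03 and Pck1 by -0.14, all on values partly at the floor (adjusted p = 0.892, 0.985 and 0.940). Fah, Hgd and Hpd, the brighter enzymes of tyrosine breakdown, changed by 0.13 ± 0.20, 0.08 ± 0.11 and -0.15 ± 0.26. Gnmt, Mat1a and Aldh1l1 changed by -0.02, 0.15 and 0.14, Agxt by -0.09 and Hal by 0.24, with adjusted p from 0.871 to 0.990.

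For most of the genes the spread between livers of 1 genotype was larger than the change between genotypes. For each gene the SD of log2 values within a genotype was taken (the root of the mean variance of both genotypes). The change was larger than this SD in 3 of the 30 genes (Ambp, Fetub and Otc). The SD had a median of 0.41 over the 30 genes and of 0.28 over all tested genes. It was 0.12 for the 11 carriers, with a low of 0.03 for Afp, and 0.41 for the 6 urea cycle genes, 0.49 for the 5 genes of tyrosine and tryptophan breakdown and 0.49 for the 4 methyl and folate genes. The spread of the brightest carriers depends on the normalization. The SD of Afp intensities was 247 in wild type and 366 in knockout livers after it, and 1086 and 423 before it. That of Alb was 349 and 949 after it, and 741 and 520 before it. Of the SDs of log2 values, those of Fbp1, Cps1, Arg1 and Hal were highest, at 1.66, 1.56, 1.00 and 0.92. At least 99.3% of all tested genes had a smaller spread than each of these 4.

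Fbp1, the gluconeogenic fructose bisphosphatase, showed this most. Its intensities were 52.1, 385, 26.3, 120 and 484 in wild type livers 1 to 5 and 55.1, 87.2, 321, 60.1 and 537 in knockout livers 1 to 5. Wild type livers 2 and 5 and knockout livers 3 and 5 were high and the other 6 low, so that the highest was 20.5 times the lowest while the genotype means were 213 and 212. Arg1, the last enzyme of the urea cycle, read 66.5, 193, 120, 99.5 and 306 in wild type, and 123, 37.5, 170, 115 and 325 in knockout livers. The same 4 livers were again the 4 highest. Hpd read 325, 550, 436, 414 and 796 in wild type and 391, 282, 577, 312 and 762 in knockout livers, with these 4 livers highest once more.

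Livers 5 of both genotypes were high for most of the genes, a pattern noticed after the values were seen. In 19 of 30 genes wild type liver 5 was the highest wild type liver and knockout liver 5 the highest knockout liver (63.3%), against 7.14% of all 12782 tested genes. For numbers 1, 2, 3 and 4 the corresponding counts were 1, 0, 0 and 0 of 30, against 6.38%, 3.20%, 3.71% and 4.16% of all genes. The 19 were 6 carriers (Ahsg, Ambp, Fetub, Itih1, Itih3 and Ttr), 3 urea cycle genes (Arg1, Asl and Nags), Fah, Hgd and Hpd, all 4 methyl and folate genes, Agxt, Hal and Fbp1. Of the 30 genes 12 were highest of all 10 livers in knockout liver 5 and 8 in wild type liver 5. Ahsg read 6487 and 6337 in these livers and between 3002 and 4479 in the other 8. Fah read 1203 and 1254 against 562 to 936, and Mat1a 379 and 434 against 164 to 403. For Mat1a the groups of livers met, since knockout liver 3 stood at 403. The labels do not say that livers with the same number were related.

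**Figure D3:**
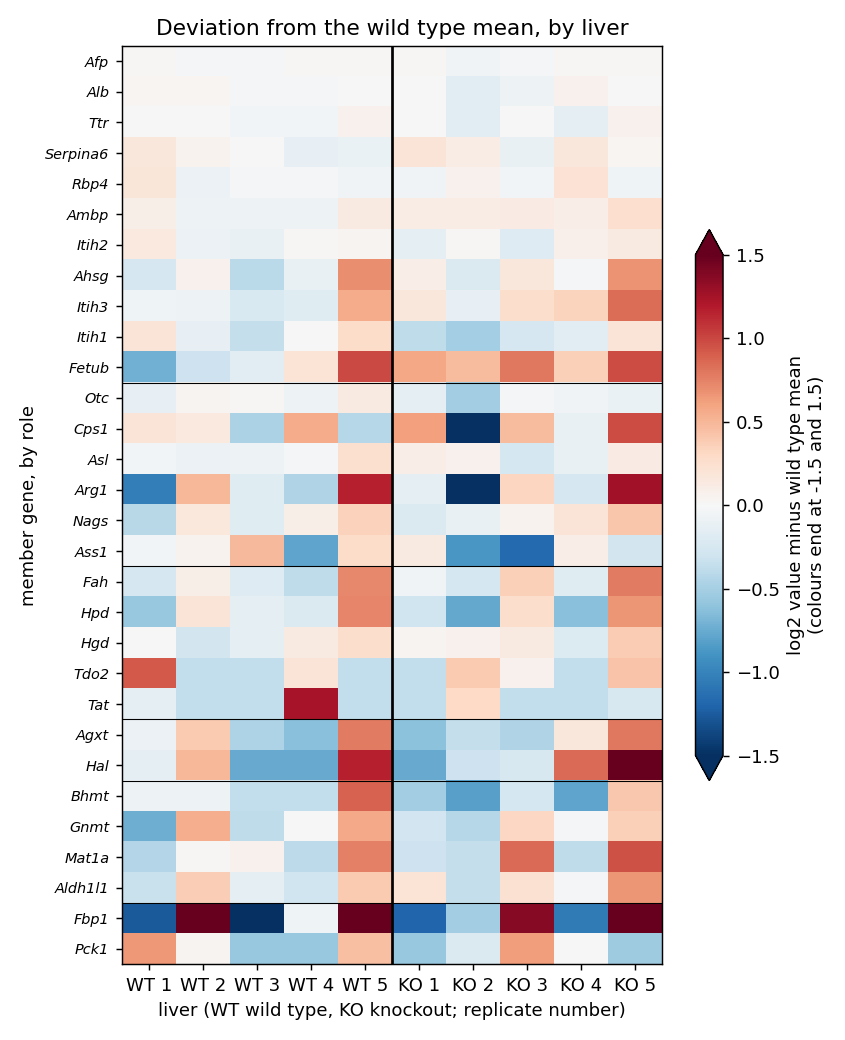
Log2 value of each of the 30 genes (rows, by role) in each liver (columns) minus the gene's mean over wild type livers; red is above and blue below. Wild type liver 5 and knockout liver 5 are red in most rows, with medians of 0.31 and 0.39, and knockout liver 2 is blue in most, with a median of -0.22.

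The median over the 30 genes of a liver's deviation from the wild type mean was 0.31 in wild type liver 5 and 0.39 in knockout liver 5, and between -0.22 and 0.06 in the other 8. Globins of embryonic red cells moved the other way in these livers. Hbb-y, an embryonic beta-type globin, read 3507 and 6211 in livers 5 of wild type and knockout and 8701 to 16088 in the other 8. Summed over all 3 measured embryonic globins the intensity ran from 4938 to 16821 in wild type and from 7847 to 25089 in knockout livers, with none at 0, and liver 5 was lowest in each genotype. The summed erythroid list was highest of the wild type livers in number 5 (42229), while knockout liver 5 (34398) lay within the knockout range. Other lists were also highest in liver 5 of each genotype by their median deviation: the acute phase list at 0.94 and 1.63 over 8 tested genes, the pathway neighbours at 0.21 and 0.38 over 26 and the mature hepatocyte markers at 0.20 and 1.44 over 3. The summed hepatoblast and hepatocyte markers were highest there too, at 36634 and 39900. By median deviation these markers were highest in wild type liver 5 (0.113). Among knockout livers they were highest in liver 1 (0.245), with liver 5 at 0.237. The summed macrophage markers read 4782 in wild type liver 5 and 2122 to 3022 in the other wild type livers, and 4772 in knockout liver 5 within a knockout range of 4097 to 5275. The part of these lists in the pattern was not tested.

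Knockout liver 2 and wild type liver 3 had the lowest medians, at -0.22 and -0.17. Wild type liver 3 lay above the wild type mean in 4 of the 30 genes and knockout liver 2 in 9. Knockout liver 2 was the lowest of the 10 livers for 10 of the genes and wild type liver 3 for 3. Cps1, the first enzyme of the urea cycle, read 720, 697, 453, 924 and 468 in wild type and 963, 32.4, 872, 584 and 1234 in knockout livers. The value of 32.4 in knockout liver 2 was far under all others. Of the other 5 urea cycle genes, Otc (551) and Arg1 (37.5) were also lowest there, while Nags (103), Asl (301) and Ass1 (24.2) were not. With all livers the change of Cps1 was -0.46 ± 0.71 (limma adjusted p = 0.893), and without knockout liver 2 it was 0.49 (adjusted p = 0.541), so this liver sets the sign. Arg1 changed by -0.13 with all livers, by 0.30 without knockout liver 2 and by 0.16 without wild type liver 5. Hba-x (6684) and Hbb-y (16088), both embryonic globins, were highest of the 10 in knockout liver 2, against 753 to 2922 and 3507 to 13061 in the others.

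**Figure D4:**
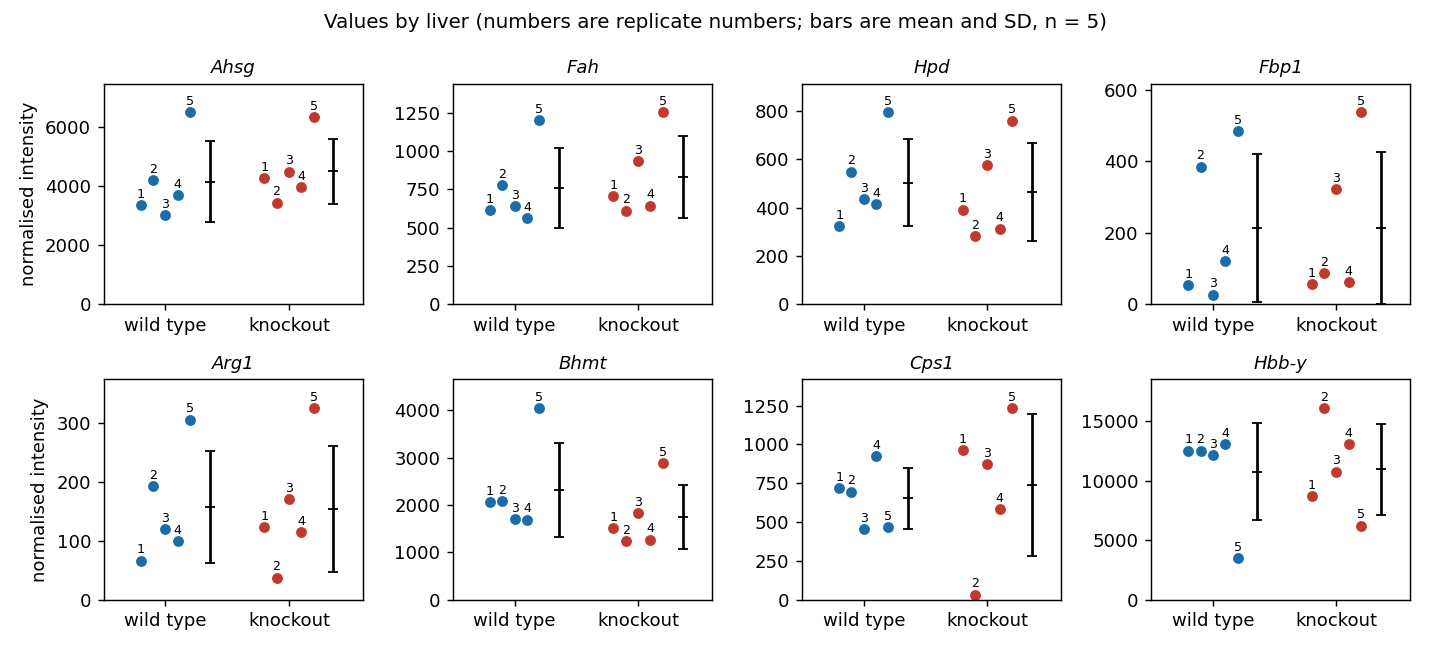
Normalised intensity by genotype for 7 of the genes and the embryonic globin Hbb-y; points are livers marked with their replicate number, and bars give the mean and SD (n = 5). Numbers 5 are high for Ahsg, Fah, Hpd, Fbp1, Arg1 and Bhmt and low for Hbb-y, and knockout liver 2 is at 32.4 for Cps1.

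With both livers numbered 5 left out, again 0 of the 30 genes were called. At an unadjusted p under 0.05 there were 4 of 30 (13.3%), against 9.49% of all probe sets in the same fit. Their median log2 change was then 0.02. Ahsg changed by 0.19 against 0.14 with all livers, Itih3 by 0.31 against 0.30, and Bhmt by -0.38 against -0.40 (limma adjusted p = 0.589, 0.178 and 0.226). The change of Cps1 was -0.93 (adjusted p = 0.757) without these livers, which read 468 and 1234.

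Shares over all tested genes stand beside the lists that follow: 0.336% called and 2.79% without overlap of the genotypes. At an unadjusted limma p under 0.05, 5.94% of all genes were higher and 5.46% lower. Other genes of the same pathways were taken from a list of 31. Of its 26 tested members 0 were called, 2 had an unadjusted p under 0.05, both higher, 16 had log2 changes above 0, and the median was 0.06. The brightest, glutamate dehydrogenase Glud1 and the homocysteine-forming hydrolase Ahcy, had log2 changes of 0.17 ± 0.08 and 0.01 ± 0.05 (limma, with adjusted p of 0.517 and 0.973). The aspartate aminotransferase Got1, named after its values were seen, was the single member without overlap, at 153 to 228 in wild type and 254 to 314 in knockout livers (0.52 ± 0.12, adjusted p = 0.0910). Of 13 tested regulators of hepatic genes, 0 were called and 5 had an unadjusted p under 0.05, all higher. Changes were above 0 in 9, and the median was 0.25. The list was not sorted by whether a regulator raises or lowers hepatic genes, so its median gives no direction for them. Hnf4a averaged 649 ± 103 and 776 ± 109 (0.26 ± 0.11, adjusted p = 0.438) and Cebpa 244 ± 33.1 and 261 ± 27.0 (0.10 ± 0.11, adjusted p = 0.835). Cebpb and Onecut1, again named after their values were seen, did not overlap between genotypes. Cebpb read 121 to 239 in wild type and 247 to 292 in knockout livers (0.69 ± 0.15, adjusted p = 0.0736). Onecut1 was dim, with 3 wild type livers under the floor (adjusted p = 0.356). The acute phase list had 8 tested members, all above 0 with a median of 0.80; 0 were called and 7 had an unadjusted p under 0.05. Its brightest, fibrinogen beta chain Fgb and the haem carrier hemopexin Hpx, changed by 0.51 ± 0.15 and 0.49 ± 0.15 (adjusted p = 0.198 and 0.210). That list was named in earlier results of these data, so its direction is no independent evidence.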

How the data were processed

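The authors deposited 1 table of probe set intensities on a linear scale, some below 0, for 10 arrays, without detection calls. Which software summarised them, and on which genome build, is not given in the sources used here. Per the labels' protocols, column-purified total RNA was turned into biotin-labelled cRNA with an Affymetrix kit. The values were quantile-normalised, set to at least 16, and log2-transformed. An earlier analysis used a floor near 0, which makes large log2 differences of dim noise. Probe sets under the 40th percentile of mean log2 were left out, which kept 27022, with 30 of 30 measured member genes and 39 of their 45 probe sets. A gene was represented by its brightest probe set. Knockout was compared with wild type in limma 3.58.1 (R 4.3.3; lmFit, eBayes with trend, two-sided), adjusted by Benjamini-Hochberg over all tested probe sets. In simulated data for this comparison, the test found 17.2% of probe sets changed 1.5-fold, 42.8% of those changed 2-fold and 53.2% of those changed 3-fold. This was over 27022 probe sets, with 3.85% false among calls. The simulated noise was independent between probe sets, with no effect shared within a liver. The changed probe sets were drawn from all tested ones, dim and bright. These shares therefore need not hold for the real livers or for the bright members. Figures used matplotlib 3.10.9 in Python 3.11.15. The number of livers limits the precision. The members, lists, floor and tests were chosen with earlier results of these data known. All 30 measured members were named; of the pathway, regulator and acute phase lists the genes called, or else the 2 brightest; of marker lists counts and genes under the floor. Others named were chosen after their values were seen. Alternatives covered floor, normalisation, filter, offset, variance model, replicate block, probe set choice and each liver left out.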

Additional observations from a re-analysis of the deposited data

Results flagged for a closer look

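A single liver stood apart from the other 4 of its genotype by Dixon's ratio on the log2 scale in 9 of 60 groups tested. Chance flags about 1 in 20 groups, or 3, if groups are independent, which these are not, since all genes share the same livers. In wild type liver 5 these were Bhmt (log2 11.98, nearest 11.02), Itih3 (12.22, nearest 11.59) and Asl (8.41, nearest 8.14), all high. In knockout liver 2 Cps1 (5.02, nearest 9.19) and Otc (9.11, nearest 9.49) were low and Tat (4.67, nearest 4.12) was high. Ambp was high in knockout liver 5 (12.71, nearest 12.58), Rbp4 in wild type liver 1 (12.78, nearest 12.59) and Tat in wild type liver 4 (5.60, nearest 4.23). For Tat most other livers were set to the floor of 16, so the floor sets the range and the ratio has no meaning there.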

How the results depend on the processing

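Across all alternatives and every liver left out singly, 0 of the tested member genes were called. Their median change ran from -0.05 to 0.06. The count over all probe sets was 57, and 11 with the floor at the lowest positive value, 12 with a floor of 32, 94 with median scaling, 6 without a filter, 9 without the trend, 179 with the replicate block, 121 without both livers numbered 5 (added after the data were seen), and 13 to 168 with a liver left out; the causes were not tested. Of 30 genes 9 kept their sign in all 21 settings, and Tat and Fetub in the 17 and 20 in which they were tested. Signs turned with median scaling for Afp (0.056), Alb (0.027), Itih2 (0.057), Ttr (0.058), Gnmt (0.060) and Asl (0.051). Without both livers numbered 5 they turned for Tdo2 (-0.16), Pck1 (0.083), Gnmt (0.032) and Asl (0.0083), and with the mean of a gene's probe sets for Hgd (-0.12) and Ttr (0.049). Tdo2 was -0.18 and Pck1 0.0024 with the lowest floor, and Tdo2 -0.057 with a floor of 32, -0.024 without normalisation and -0.044 with the offset. With a liver left out the ranges that crossed 0 were Itih2 (-0.059 to 0.022), Fbp1 (-0.42 to 0.63), Pck1 (-0.33 to 0.027), Nags (-0.037 to 0.15), Tdo2 (-0.066 to 0.26), Agxt (-0.31 to 0.10), Gnmt (-0.20 to 0.12), Hpd (-0.36 to 0.030), Arg1 (-0.48 to 0.30), Asl (-0.051 to 0.043), Afp (-0.012 to 0.0064), Cps1 (-0.82 to 0.49), Mat1a (-0.050 to 0.34), Rbp4 (-0.022 to 0.071), Fah (-0.033 to 0.31), Hal (-0.11 to 0.54). The labels do not say whether replicate numbers pair the livers, and this was not tested. Same-numbered deviations correlated at 0.05, 0.03, 0.10, 0.06 and 0.13, and those of different numbers at -0.095 to 0.074. In all, 3 of 5 wild type and 4 of 5 knockout livers correlated best with their own number. With the block, 5 member genes (16.7%) had an unadjusted limma p under 0.05, against 11.1% of all probe sets. The share over genes was not taken for that fit. The lowest adjusted p of a member with the block was that of Bhmt (0.0847). Changes in Tat, Tdo2 and Pck1 were limited by signal near background.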
